A study of Arabidopsis thaliana with 12 samples.

Results

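ATG8 is the small ubiquitin-like protein of autophagy, the process by which a cell wraps part of its cytoplasm in a double membrane and delivers it to the vacuole for breakdown. A conjugation system attaches ATG8 to a membrane lipid, and membrane-bound ATG8 helps the autophagosome grow and binds the receptors that bring cargo. Plants carry several ATG8 genes, which fall into one clade whose products need a protease to expose the terminal glycine and a second clade whose products end at that glycine. Seedlings use the pathway to recycle proteins and chloroplast material, and it is known for its role when nutrients run short.

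The Arabidopsis thaliana family has 9 genes, and all 9 were measured among the 22337 genes listed. ATG8A (AT4G21980), ATG8B (AT4G04620), ATG8C (AT1G62040), ATG8D (AT2G05630), ATG8E (AT2G45170), ATG8F (AT4G16520) and ATG8G (AT3G60640) are the 7 members of the first clade, and ATG8H (AT3G06420) and ATG8I (AT3G15580) are the 2 members of the second. They were chosen by gene identifier, and the family was picked because ATG8C stood out in the tagged reads of these same libraries. Tagged reads, tagged shares and comparisons of them are therefore given as a description, with no test. Tests are given for untagged reads and for unenriched RNA. A molecule whose tag was not read would count as untagged. Tests of untagged reads in enriched RNA with ADPRC may therefore not be independent of the tagged reads. By the TAIR10.1 annotation, ATG8A overlaps AT4G21990, so its reads are less certain, and none of the other 8 overlaps a listed gene.

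The study measured RNA that carries NAD+ in place of the usual cap, by NAD tagSeq. The enzyme adenosine diphosphate ribosylcyclase (ADPRC) exchanges part of the NAD+ cap for a reactive group, to which a synthetic RNA tag is joined, and the molecules are sequenced directly as RNA by Nanopore. All groups were untreated whole seedlings of Col-0, 12 days old, grown on sucrose medium. Poly(A) RNA enriched for tagged molecules came as 3 libraries treated with ADPRC and 3 left without the enzyme, which serve as the background control. Poly(A) RNA without enrichment came as 3 treated libraries and 1 untreated library, and total RNA, after enrichment, as 1 treated and 1 untreated library. Whether the replicates are separate cultures is not stated in the labels. The p-values below therefore cover the differences among these libraries only, and those may be technical. In whole seedlings, fewer cells of a type and less RNA per cell cannot be told apart.

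Enriched poly(A) libraries with ADPRC held 1175516, 1220520 and 1233999 reads in replicates 1, 2 and 3, of which 23.9%, 20.9% and 14.1% carried the tag. Those without ADPRC held 390009 to 948433 reads with 0.132% to 0.224% tagged, and unenriched libraries with ADPRC 378322 to 619122 reads with 0.546% to 0.743% tagged. The unenriched library without ADPRC held 434742 reads, and the total RNA libraries 6479 with and 1237 without ADPRC. The small subunit of Rubisco RBCS1A (15590 to 28974 TPM), the antenna gene LHCB1.3 and the root-enriched beta-glucosidase PYK10 (1228 to 3103 TPM) were abundant in all 10 poly(A) libraries, so that markers of both shoot and root were present. Levels are written in TPM as the files name them, but they behave as CPM, counts relative to all reads of the library, with no correction for transcript length. Levels of different genes are therefore set side by side only as reads of the library, and genes are compared mainly by their tagged share, the percentage of a gene's own reads that carried the tag.

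ATG8C was the most completely tagged member of the family. In enriched poly(A) RNA with ADPRC its tagged level was 62.1, 71.3 and 77.0 TPM in replicates 1, 2 and 3, or 70.1 ± 7.51 TPM (SD, n = 3). No tagged ATG8C read was found in the 3 enriched libraries without ADPRC or in the 4 unenriched libraries, so that the enriched libraries with ADPRC stood apart from the 7 other poly(A) libraries. The total RNA libraries had no ATG8C read of any kind, and with so few reads they could not have shown a level of this size. Against a floor of 3 reads over the group, the tagged level was at least 43.5-fold higher than without ADPRC and at least 36.4-fold higher than in unenriched RNA with ADPRC. ATG8C was covered by 62 reads in the 3 enriched libraries without ADPRC, and 0 of 62 allows a tagged share of up to 4.84%. The same 0 of 62 held in unenriched RNA with ADPRC, and the unenriched library without ADPRC gave 0 of 20 reads.

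More of the ATG8C reads carried the tag than lacked it. The tagged share of ATG8C was 54.1% (73 of 135 reads), 64.0% (87 of 136) and 54.0% (95 of 176) in replicates 1, 2 and 3, with a mean of 57.3% ± 5.74 (SD, n = 3). Over the 3 libraries together 255 of 447 reads were tagged, which is 57.0% with a 95% Wilson interval of 52.4% to 61.6% that covers counting error only. Among the 5242 genes with at least 20 reads in each of these libraries, the median share was 15.3%, the middle 50% of genes lay between 7.96% and 22.9%, and 18 genes exceeded 50%. ATG8C ranked 4 of 5242 by mean share, with ranks of 43, 4 and 3 in replicates 1, 2 and 3.

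ATG8F, the member with the most reads in every group of poly(A) libraries, had a like tagged level at a much lower share. Its tagged level in enriched RNA with ADPRC was 95.3, 61.4 and 54.3 TPM in replicates 1, 2 and 3, or 70.3 ± 21.9 TPM (SD, n = 3), which overlapped that of ATG8C. Its tagged share was 34.3%, 25.8% and 20.1%, below that of ATG8C in each of the 3 libraries. A share after enrichment also depends on the untagged reads of the gene in these libraries. Without ADPRC, the mean of all reads in enriched RNA over the level in the 1 unenriched library was 2.13 for ATG8F and 0.657 for ATG8C. Whether this bears on the difference in share was not tested. By mean share ATG8F ranked 810 of 5242 genes. In total RNA with ADPRC 3 ATG8 reads were found, all of ATG8F and 2 of them tagged, and the total RNA library without ADPRC had none, so total RNA says little of the family.

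ATG8E and ATG8A came next by mean tagged level. The tagged level of ATG8E was 25.5, 23.8 and 16.2 TPM in replicates 1, 2 and 3, and its share was 39.0%, 29.9% and 19.2%. The tagged level of ATG8A was 32.3, 27.9 and 7.29 TPM, and its share was 29.5%, 31.2% and 11.4%. The ranges of these genes overlapped in both measures, and replicate 3 was the lowest library for each. By mean share ATG8E ranked 570 and ATG8A ranked 1156 of the 5242 genes.

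The other members of the first clade had few reads. ATG8G had a tagged level of 3.62 ± 2.19 TPM and a share of 24.8% ± 7.41, ATG8D 2.50 ± 1.46 TPM and 15.2% ± 7.88, and ATG8B 2.22 ± 1.31 TPM and 13.9% ± 7.81 (SD, n = 3 each). These shares rest on 8 tagged reads of 57 for ATG8B, on 9 of 57 for ATG8D and on 13 of 50 for ATG8G over the 3 libraries, and their order was not resolved at this depth. In the second clade ATG8I had a tagged level of 17.9, 9.83 and 4.05 TPM in replicates 1, 2 and 3 and a share of 16.3% ± 8.19. ATG8H had a tagged level of 3.03 ± 0.929 TPM and a share of 14.2% ± 4.15. ATG8I and ATG8H ranked 2439 and 2827 of the 5242 genes by mean share, near the middle of them.

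In order of mean share the members ran ATG8C, ATG8E, ATG8F, ATG8G, ATG8A, ATG8I, ATG8D, ATG8H and ATG8B. The lowest library of ATG8C, at 54.0%, lay above the highest library of any other member, which was ATG8E at 39.0%. From ATG8E to ATG8B, every pair of neighbours in this order overlapped between libraries.

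**Figure D1:**
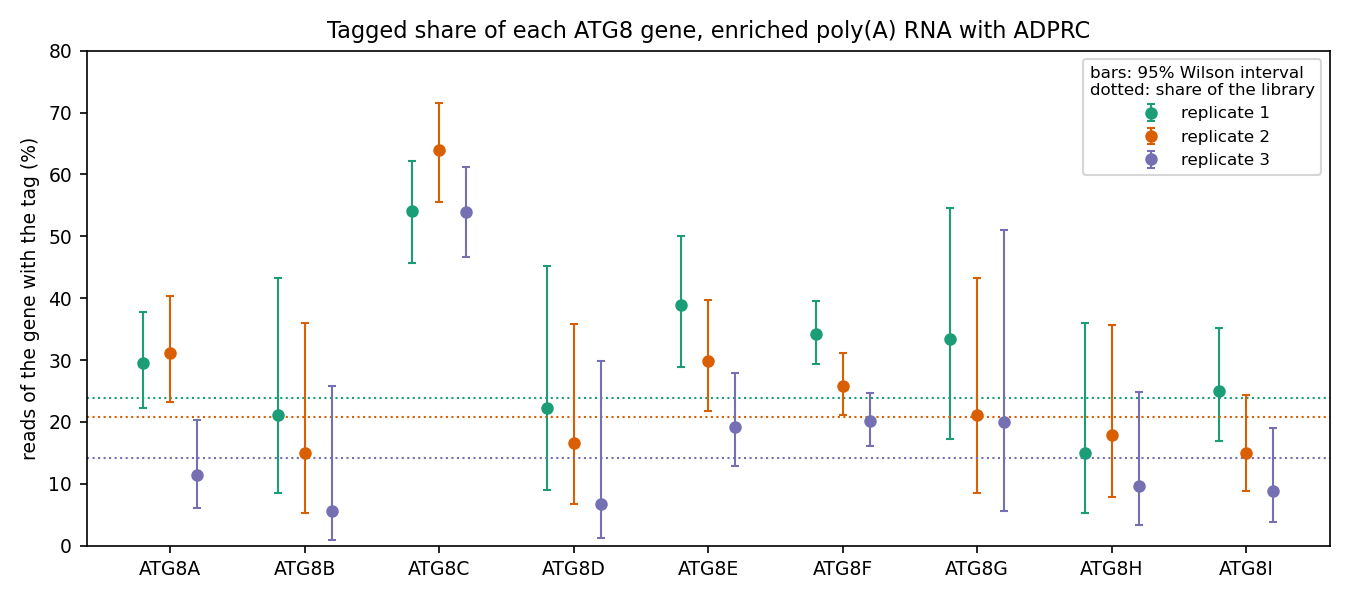
Percentage of each ATG8 gene's reads that carried the tag in enriched poly(A) RNA with ADPRC, one point per library with its 95% Wilson interval, and dotted lines at the tagged share of all reads of each library. The ATG8C points, at 54.0% to 64.0%, lie above every other member's point, and the members with few reads have wide intervals.

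The share of ATG8C was not ordered across libraries like that of the whole library, whereas the share of its paralogues as a sum was. ATG8C was not alone in this. ATG8A had 29.5%, 31.2% and 11.4% and ATG8H 15.0%, 17.9% and 9.68% in replicates 1, 2 and 3, also highest in replicate 2. The other paralogues each followed the order of the library. The order of the ATG8C shares was itself within counting error. Their 95% Wilson intervals were 45.7% to 62.3%, 55.6% to 71.6% and 46.6% to 61.2% in replicates 1, 2 and 3, and all overlapped. Taken as one sum, the other 8 genes had 31.5%, 24.9% and 16.7% of their reads tagged in replicates 1, 2 and 3, in the same order as the 23.9%, 20.9% and 14.1% of all reads. The ATG8C share was 1.72, 2.57 and 3.23 times that of the other 8 in these libraries. The highest share of any paralogue in a library was 39.0% in replicate 1 (ATG8E), 31.2% in replicate 2 (ATG8A) and 20.1% in replicate 3 (ATG8F), each below ATG8C in the same library. With 3 libraries no relation to library share can be tested, and these are values only.

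ATG8C therefore made up a varying part of the family's tagged RNA. The 9 genes gave 292, 253 and 203 tagged reads of 830, 804 and 823 reads in replicates 1, 2 and 3. ATG8C supplied 25%, 34.4% and 46.8% of these tagged reads, against 16.3%, 16.9% and 21.4% of all ATG8 reads. ATG8F supplied 38.4%, 29.6% and 33.0% of the tagged reads against 39.4%, 36.2% and 40.5% of all reads, so that its part in both was close in replicate 1 and lower among tagged reads in replicates 2 and 3.

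**Figure D2:**
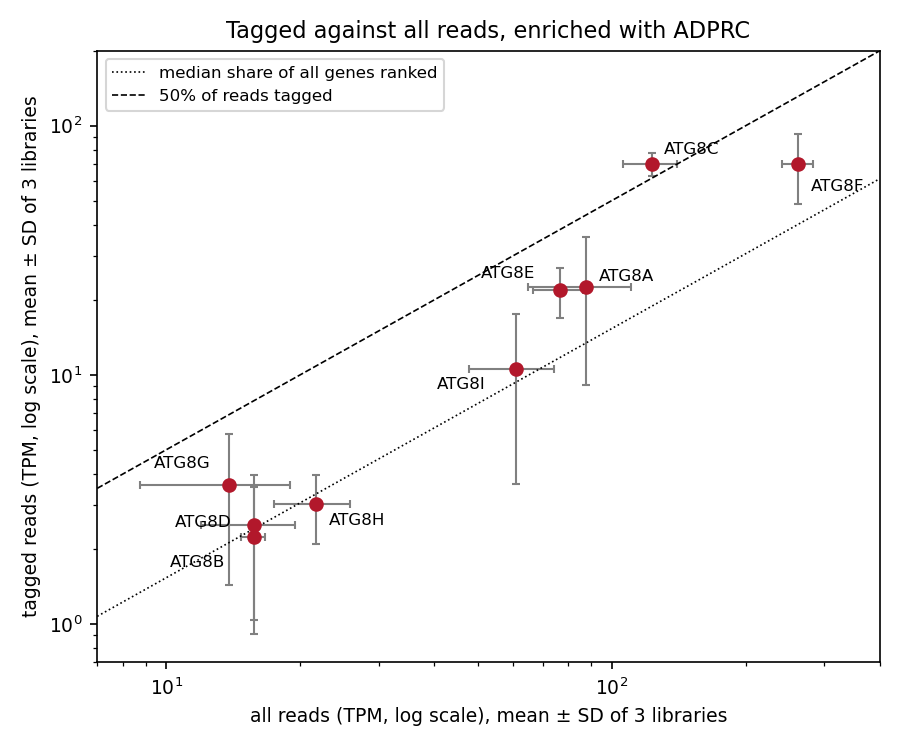
Tagged level against level of all reads of the 9 ATG8 genes in enriched poly(A) RNA with ADPRC, both in TPM on log axes, as mean ± SD of 3 libraries. The dashed line marks 50% of reads tagged and the dotted line the median share of 5242 genes, 15.3%. ATG8C is the 1 member above the dashed line.

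Outside the enriched libraries with ADPRC the family was almost free of tags. Without ADPRC, 1 of 1054 ATG8 reads in the 3 enriched libraries was tagged, an ATG8I read in replicate 2. In unenriched RNA with ADPRC, 4 of 611 ATG8 reads were tagged, 2 of ATG8A in replicates 1 and 2 and 2 of ATG8F in replicates 2 and 3. None of the 189 ATG8 reads of the unenriched library without ADPRC was tagged. The tagged share of the family in unenriched RNA with ADPRC was 0.642% ± 0.165 (SD, n = 3), within the range of the whole libraries.

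Reads of all kinds separated ATG8C from its paralogues in enriched RNA. ATG8C had 115, 111 and 143 TPM in enriched RNA with ADPRC and 17.9, 32.6 and 40.1 TPM without it, in replicates 1, 2 and 3. The mean with ADPRC was 4.07 times the mean without, and the groups did not overlap. For the other 8 genes the same ratio of all reads lay between 0.706 (ATG8I) and 1.28 (ATG8E). ATG8A, ATG8B, ATG8D, ATG8E, ATG8F, ATG8G and ATG8H overlapped between the groups, whereas ATG8I had 71.5, 65.5 and 46.2 TPM with ADPRC and 97.4, 90.2 and 71.7 TPM without it, so that its highest library with ADPRC lay just below its lowest without. All reads include the tagged reads on which the family was picked, so this too is a description. The share of all genes whose groups do not overlap was not counted, so the separation of ATG8I has no background to set it against.

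**Figure D3:**
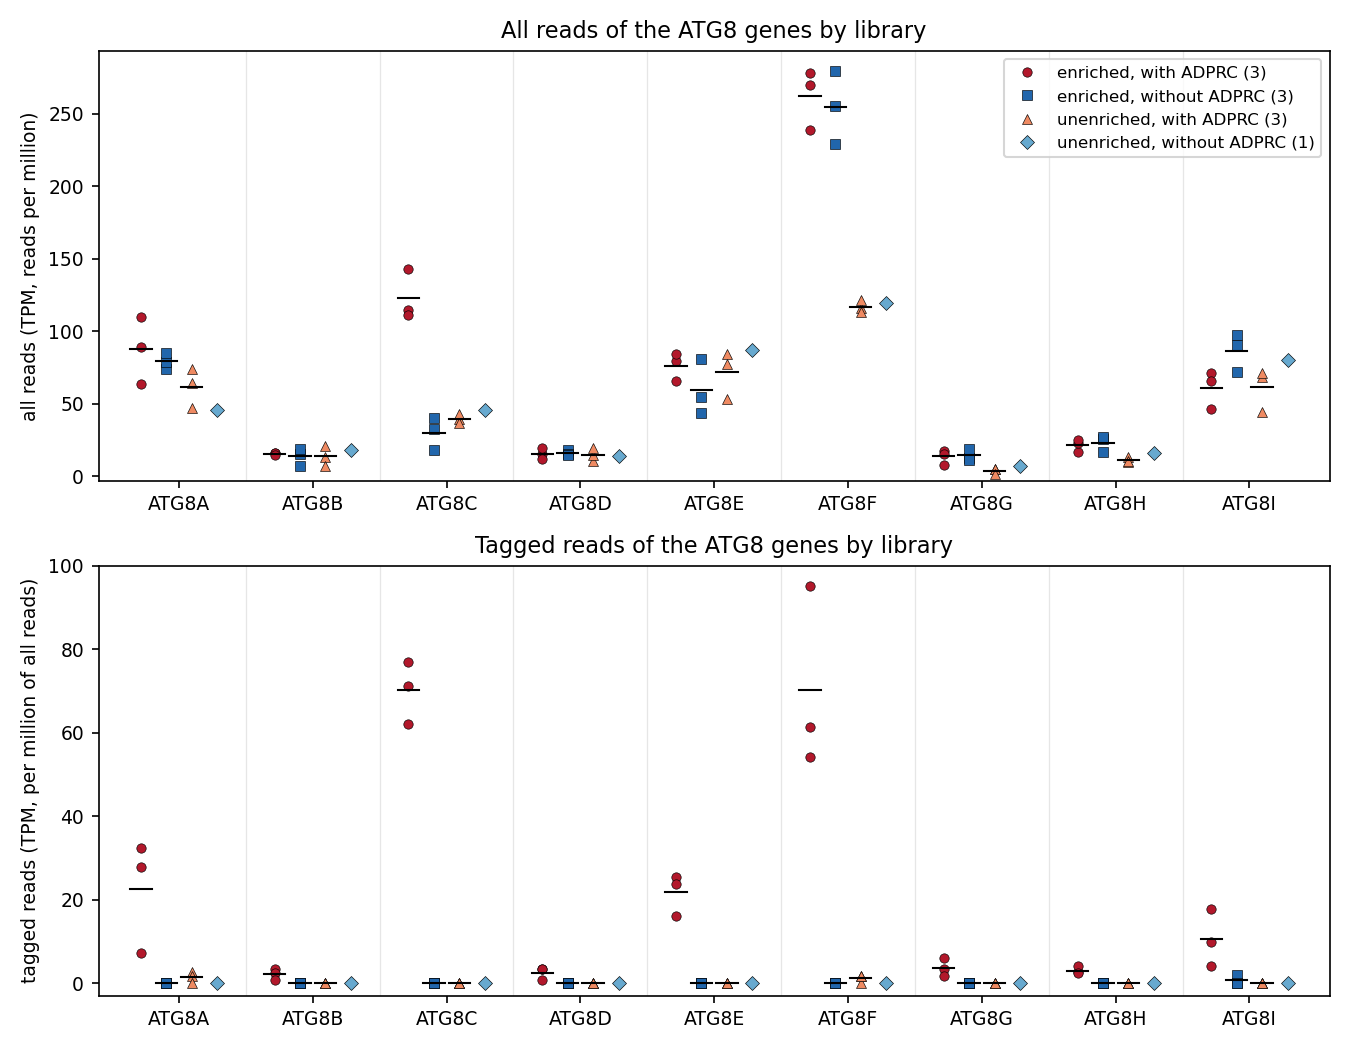
Level of all reads (top) and of tagged reads (bottom) of the 9 ATG8 genes in each poly(A) library, in TPM on linear axes, with a bar at the mean of groups of 3. In the top panel ATG8C with ADPRC after enrichment lies above its 3 other groups, and ATG8F is about as high in both enriched groups and lower in unenriched RNA. In the bottom panel nearly all tagged reads are in enriched RNA with ADPRC.

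Whether the untagged reads of the family differed with ADPRC after enrichment was tested on untagged CPM, a gene's untagged reads relative to all untagged reads of the library. ATG8C had 69.3, 50.7 and 76.4 untagged CPM with ADPRC and 18.0, 32.7 and 40.2 without it, in replicates 1, 2 and 3. The groups did not overlap, but the call was not made: the log2 difference was 1.14 (SE 0.29, 95% interval 0.53 to 1.75) with an adjusted p of 0.390 by limma with Benjamini-Hochberg adjustment over 18989 genes. ATG8I had the next largest size of difference, at a log2 difference of -0.44 (SE 0.21) with an adjusted p of 0.709 by limma. The other 7 members lay between -0.19 and 0.34. In this comparison 0 of 9 members were called by limma, by edgeR or by DESeq2, and 1 of 9, ATG8C, had an unadjusted p under 0.05 by limma, as did 7.18% of all genes. At the adjusted threshold, of all genes 0.0263% were called higher and 0.0211% lower, so that calls were rare throughout. The median log2 difference was 0.018 over the members and 0.12 over all genes.

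The call for ATG8C depended on the setting, and ATG8C passed the threshold under 2 of 15 alternatives. The fit of all reads in place of untagged reads gave ATG8C a log2 difference of 2.05. All reads include the tagged reads on which the family was picked, so this passing of the threshold is a description only. With the replicate number as a block in the fit of untagged reads, the log2 difference stayed at 1.14 and the adjusted p by limma was 0.00500, although the labels do not say that the numbers pair the libraries. Leaving out each library in turn gave log2 differences of untagged ATG8C between 0.81 and 1.37, none of them past the threshold. Over all alternatives tried, its adjusted p ran from 0.00500 to 0.988.

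Untagged reads did separate enriched from unenriched RNA for ATG8F. With ADPRC, ATG8F had 240, 224 and 251 untagged CPM in enriched and 117, 112 and 120 in unenriched RNA, in replicates 1, 2 and 3. ATG8F rose by a log2 difference of 1.02 (SE 0.15), or 2.03-fold, with an adjusted p of 0.000725 by limma over 18640 genes. It was the 1 of 9 members called higher and 0 were called lower, where 3.52% of all genes were called higher and 1.78% lower. The same gene was also higher after enrichment where no ADPRC had been used: its level of all reads was 279, 255 and 229 TPM in the 3 enriched libraries and 120 TPM in the 1 unenriched library. The ratio of means of all reads was 2.13 without ADPRC and 2.24 with it. ATG8F was not alone in this: without ADPRC the ratio was 2.11 for ATG8G, 1.73 for ATG8A and 1.44 for ATG8H. It was 1.16 for ATG8D, 1.07 for ATG8I, 0.760 for ATG8B, 0.683 for ATG8E and 0.657 for ATG8C. The unenriched library held 3 ATG8G reads.

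The remaining members gave values short of the threshold in that comparison. ATG8G had a log2 difference of 1.43 (SE 0.51, adjusted p = 0.117 by limma), ATG8H 0.95 (SE 0.33, adjusted p = 0.107) and ATG8C 0.67 (SE 0.22, adjusted p = 0.0888). ATG8G rested on 1 to 3 reads in each unenriched library with ADPRC. ATG8A, ATG8B, ATG8D, ATG8E and ATG8I lay between -0.09 and 0.43. The median was 0.43 over the members and 0.26 over all genes.

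**Figure D4:**
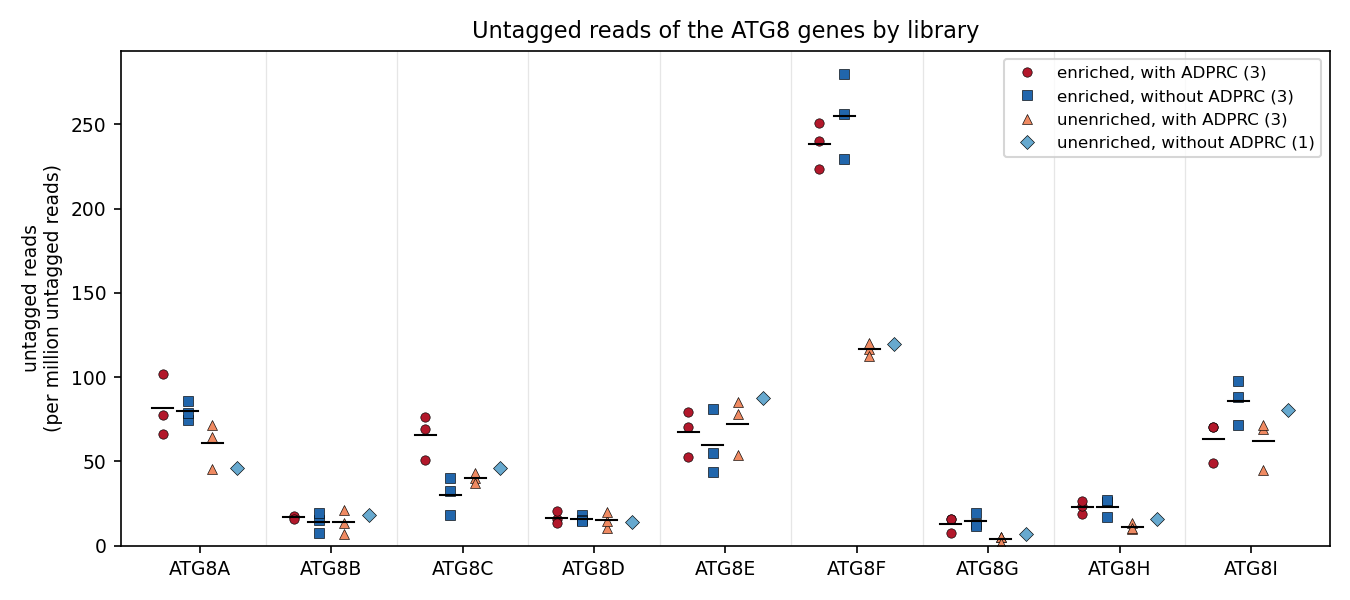
Untagged CPM of the 9 ATG8 genes (untagged reads relative to all untagged reads of a library) in each poly(A) library, on a linear axis, with a bar at the mean of groups of 3. ATG8F is higher in both enriched groups than in unenriched RNA, and ATG8C is higher in enriched RNA with ADPRC, at 50.7 to 76.4, than without it, at 18.0 to 40.2.

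In unenriched RNA the ADPRC reaction left no call in the family. ATG8C had 39.6, 37.1 and 42.9 TPM of all reads with ADPRC and 46.0 TPM in the 1 library without it, a log2 difference of -0.20 (SE 0.37, 95% interval -0.92 to 0.52, adjusted p = 0.979 by limma over 15324 genes). None of the 9 members was called by limma, edgeR or DESeq2, and 0 had an unadjusted p under 0.05 by limma. Of all genes 0.0522% were called higher and 0% lower by limma. The members lay between -0.63 (ATG8G) and 0.38 (ATG8A), with a median of -0.30 against -0.01 over all genes. The lone control library was assumed to vary like the others. A log2 difference of the size seen for ATG8F after enrichment lies within the 95% intervals of ATG8A, ATG8B, ATG8D, ATG8G and ATG8H. This holds in at least 1 direction, and for ATG8A only just.

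A wider list of 34 autophagy genes, from the kinase complex that starts the process to the conjugation enzymes that act on ATG8, was set beside the family. Of these, 33 were listed, 17 had a tagged read in enriched RNA with ADPRC and 8 had one in all 3 libraries. The list as a sum had 17.4%, 13.8% and 8.92% of its reads tagged in replicates 1, 2 and 3, below the other 8 ATG8 genes (31.5%, 24.9% and 16.7%) and below the whole library in each. Without ADPRC, 1 of 159, 1 of 271 and 0 of 445 reads of the list were tagged.

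The genes of the list differed in share. They were split into genes of ATG8 and ATG12 conjugation and the rest after the values were seen, keeping to the genes that the reference names. The 6 conjugation genes so named had 30.8%, 23.1% and 15.0% of reads tagged in replicates 1, 2 and 3, and the 16 other named genes had 7.10%, 5.45% and 4.66%. The split did not hold gene by gene: ATG101, of the kinase complex, had 22 of 63 reads tagged and so supplied 22 of the 34 tagged reads of the other genes, while ATG7 and ATG10, of conjugation, had 0 of 18 and 0 of 10. ATG5, which is joined to ATG12 to help attach ATG8 to its lipid, had the highest tagged level of the list at 12.5 ± 5.41 TPM (SD, n = 3), with 45 of 150 reads tagged. ATG3, the enzyme that hands ATG8 to its lipid, had 22 of 150 reads tagged. NBR1, a cargo receptor that binds ATG8, had the highest level of all reads of the list in unenriched RNA, 59.8 ± 9.32 TPM (SD, n = 4), but 4 of its 206 reads in enriched RNA with ADPRC were tagged. AT3G59950 and AT2G44140 had tagged levels of 8.86 ± 5.87 and 6.33 ± 0.328 TPM, with 32 of 111 and 23 of 152 reads tagged. Both were listed under conjugation but are not named by the reference, so the sum of conjugation genes leaves them out. It also leaves out AT5G50230, of conjugation, with a tagged level of 0.273 ± 0.473 TPM. NBR1, ATG5, ATG3, ATG10, AT3G59950 and AT2G44140 each overlap another listed gene, and transcript length, which differs between these genes, was not tested.

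In the tests on untagged and unenriched RNA no gene of the list passed the threshold. By limma 0 of 33 were called with against without ADPRC in untagged enriched RNA, 0 of 32 in enriched against unenriched RNA and 0 of 28 in unenriched RNA, with 1, 2 and 2 genes at an unadjusted p under 0.05. At that unadjusted threshold stood 7.18%, 21.1% and 6.63% of all genes tested. AT2G44140 came nearest, at a log2 difference of 1.03 with an adjusted p of 0.0514 in enriched against unenriched RNA, and it was called higher there under 5 of 15 alternatives, with log2 differences of 0.86 to 1.25 and adjusted p of 0.0164 to 0.0390 by limma. By edgeR and by DESeq2 the list had 0 calls in each of the 3 comparisons.

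The genes whose values over the 10 poly(A) libraries lay closest to those of ATG8C were found by the root mean square difference of log2(TPM + 1) over 20 values, tagged and all reads of each library. They were AT4G13170 at 0.49, AT2G17695 at 0.62, AT2G29310 at 0.67, PP2-A1 (AT4G19840), a phloem lectin, at 0.68 and CB5-B (AT2G32720), a cytochrome b5, at 0.70. AT4G13170 had 46.7 ± 11.0 TPM tagged and CB5-B 54.3 ± 19.7 TPM tagged in enriched RNA with ADPRC (SD, n = 3 each), with shares of 41.5% ± 7.42 and 49.1% ± 7.22. No other ATG8 gene was among these 5: the nearest paralogue was ATG8E at 0.91, in place 85, and the farthest was ATG8G at 2.47. The measure takes in the level of a gene as well as its pattern.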

How the data were processed

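Tagged reads and all reads were deposited by the authors as separate tables, and the values are named TPM per the file headers. All 38774 tagged and 177709 all-read values above 0 were whole multiples of the value of 1 read, within 0.01 reads, so the deposited TPM act as CPM of all reads and whole reads were recovered (100% of values). Untagged reads are all minus tagged reads, and may include molecules whose tag was not read. The base caller, aligner, build, annotation, strand and rule for a tagged read were not stated in these sources. One row, of no gene and with 1 read, was left out, and 22084 IDs matched the TAIR10.1 table, used for names and overlaps.

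Two-sided tests were run with limma 3.58.1 under R 4.3.3 (lmFit, then eBayes with a trend) on log2(value + pseudocount). Genes entered with values above 0 in 3 libraries or more, with Benjamini-Hochberg adjusted p under 0.05 called. Pseudocounts were 1.09 (untagged, ADPRC), 2.04 (unenriched, ADPRC), 1.37 (untagged, enrichment), 0.953 and 1.23 (tagged reads, whose calls are not used), so folds of low genes are understated. edgeR 4.0.16 (quasi-likelihood) and DESeq2 1.42.0 ran on recovered reads as alternatives, with tagged reads scaled by library totals, a choice made after seeing the data, and fits without a replicate kept the genes of the full fit. The limma and edgeR fits were also run on simulated counts, and no result of that is used here. Intervals and floors (3 reads) cover counting error only.

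The members, lists and tests were chosen with earlier results of these data known. Named are all 9 members. From the autophagy list, the 3 genes with the most reads in unenriched RNA, the 3 with the most tagged RNA and any gene called are named. ATG101, ATG7, ATG10 and AT5G50230 are named in addition, to show the limits of the split by conjugation. The 5 genes most like ATG8C are also named. Same-numbered libraries had correlated deviations of 0.10, 0.07 and 0.08 in untagged enriched RNA, not all above 0.1, and the labels give no shared batch, so numbers were not used as pairs.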

Additional observations from a re-analysis of the deposited data

Results flagged for a closer look

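In all reads, ATG8C lay above its controls in enriched poly(A) RNA. In unenriched RNA it lay below its lone control, by a difference that was not called. Its level of all reads with ADPRC was 4.07 times that without ADPRC after enrichment, with each of the 3 libraries with ADPRC above each of the 3 without it, and 0.867 times in unenriched RNA, with each of the 3 libraries below the 1 library without ADPRC. For untagged CPM the same ratios were 2.16 and 0.873. The ratio of 4.07 includes the tagged reads on which the family was picked, so it is a description. In unenriched RNA the log2 difference of all reads was -0.20 (SE 0.37) by limma, so a lower level there was not resolved. The difference between enriched and unenriched RNA was not tested, and the unenriched side rests on 1 control library with 20 ATG8C reads. The share of all genes with such a pattern was not counted.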

How the results depend on the processing

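Of the 3 tests, the number of members called moved in that of untagged enriched RNA with against without ADPRC and in that of enriched against unenriched RNA. In the first, 1 member in place of 0 was called with all reads (ATG8C at 2.05) and with a replicate block (ATG8C at 1.14, adjusted p = 0.00500, limma). Fits of all reads include the tagged reads on which the family was picked, so for ATG8C they are a description and no test. In the second, 2 in place of 1 were called with all reads, again a description (ATG8C at 1.59). Under the other alternatives the adjusted p of ATG8C there was 0.0502 to 0.430 by limma, edgeR or DESeq2. ATG8F was called under every alternative there, at 0.72 to 1.15. No paired design is given by the labels, though in untagged enriched RNA every library correlated best with its own number. The block moved the calls over all genes there from 5 higher and 4 lower to 155 and 56. Under the other alternatives of that comparison, edgeR called 29 higher and 13 lower, DESeq2 15 and 9, and the scaling to all reads of the library 1 and 8. In enriched against unenriched RNA 657 higher and 332 lower became 266 and 469 with DESeq2, 182 and 649 with scaling to all reads of the library, 534 and 540 after quantile normalization and 926 and 420 with the block. Without enriched replicate 3 the counts were 126 and 117, and ATG8F was still called. In unenriched RNA the higher calls of the main fit were lost under every alternative except the fit without ADPRC-treated replicate 1. Of 349 alternative values of members 46 changed sign, all between -0.29 and 0.12 and 0 of them past the threshold. The causes were not tested. Depth limits ATG8B, ATG8D, ATG8G and ATG8H, with at most 31 reads in a library.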
